A study of Mus musculus with 30 samples.

Results

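The cytosolic ribosomal protein genes encode the protein components of the large (Rpl) and small (Rps) ribosomal subunits. The genes described here are those whose symbol follows the Rpl, Rps or Rplp naming pattern, without the S6 kinases and without genes that RefSeq lists as pseudogenes. The array table held 51 probes for 42 such genes, out of 26423 probes and 19084 named genes in all. RefSeq lists 83 genes under the same rule, and the other 41 are not analysed here. Rpl6l and Rps4l follow the naming pattern but are RefSeq pseudogenes, so they are not counted among the 42.

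Each ribosome contains a single copy of nearly every ribosomal protein, and its synthesis is among the largest expenses of a growing cell. Most of these genes are transcribed at high levels in every cell type, and their mRNAs typically start with a run of pyrimidines that makes their translation respond to mTOR signalling. Several have paralogs with a restricted pattern, such as Rpl3l, which is known for its expression in heart and skeletal muscle.

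The series profiled total RNA of 30 mouse samples on a whole-genome oligonucleotide array, in 5 sets that the authors normalized separately. CiPSCs are pluripotent stem cells made from somatic cells by small molecules, and 11 lines were measured. By the treatment codes in the labels they were CiPS34 (VC6TFMP+Z), MNF CiPS7 (VC6TFS+Z), CiPS50 (VC6F+Z) and CiPS21 (VC6TFDBS+Z) in set 1; MNF CiPS1 (VCT6FMDBR+Z), MAF CiPS3 (VC6TFDM+Z), CiPS45 (FC6+Z) and ADSC CiPS2 (VC6TFMPS+Z) in set 2; CiPS WT1 and CiPS WT2 (both VC6TFMPS+Z) in set 3; and the CiPSC control (VC6TF+Z) in set 5. ADSC CiPS2 is named for adipose-derived stem cells, but its source label reads adult lung fibroblasts. Transgenic iPSCs were 2 OSKM iPSC lines (sets 1 and 2, no chemical treatment) and 2 SKM-FSK iPSC lines (set 4, treatment code F), all from mouse embryonic fibroblasts. There were 5 embryonic stem cell (ESC) samples, 1 in each set, from line R1 except ESC2, which came from line TT2. Fibroblasts under treatment were sampled on day 12 (VC6TF), day 20 and day 32 (both VC6TF+Z), 1 sample each in set 5. The 7 untreated somatic samples were mouse embryonic fibroblasts (MEF1, WT MEF, MEF2 and MEF3 in sets 1, 3, 4 and 5) and, in set 2, neonatal fibroblasts (MNF), adult lung fibroblasts (MAF) and adipose-derived stem cells (ADSC). The title of WT MEF calls these fibroblasts wildtype, while the titles of MEF1, MEF2 and MEF3 name no genotype. Every value of sets 3 and 5 pools 2 replicates and every other value pools 3, and nothing says that they came from separate cultures, so p-values measure the spread between samples only. All pluripotent lines were grown on a layer of growth-arrested MEFs.

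Set 5 stood apart from the other sets. Intensities under 16 made up 18.6% of its values, against at most 0.771% in sets 1 to 4, and the median intensity of its samples ran from 109.5 to 110.04, against 225.1 to 358.8 in the other sets. Set 5 also held 26397 probes, against 13989 to 21717 in the other sets. These shares and medians are therefore taken over unlike probes, and how far that accounts for them was not tested. Of 13 pluripotency markers measured in set 5, ESC5 was at least 2-fold above MEF3 in 6, against 7 of 8, 7 of 7, 7 of 7 and 12 of 12 markers for the ESC samples of sets 1 to 4. Esrrb, a pluripotency factor, had an intensity of 27782 in ESC5 and 91.0 in MEF3, but Sox2, another, had 34.2 in ESC5 and 28.2 in MEF3. Fibroblast markers were at least 2-fold lower in ESC5 than in MEF3 for 11 of 13. The main counts over all sets are therefore also given without set 5 or without MEF3.

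Pyrimidine runs were counted around the annotated start sites. RefSeq (GRCm38.p6) gave start sites for 37 of the 42 genes, 250 bases before to 50 after each start. A run of at least 8 C or T letters that begins with C, on the sense strand within 50 bases of a start, was present in 30 of the 37 (81.1%), against 8645 of the 27025 genes in the table. Most of these runs lay before or after the start, and a run that covered the annotated start base itself was present in 9 of the 37 (24.3%), against 3.82% of all genes. The letters CCGGAA, the core that ETS-family transcription factors such as GABP bind, occurred on either strand of the whole window in 23 of the 37 (62.2%), against 16.7% of all genes. Genes with several starts had more chances to hold either feature, and over starts the shares were 74.5% (35 of 47) against 28.8% for the run and 51.1% (24 of 47) against 14.9% for CCGGAA. The 30-base windows below run from 10 bases before to 20 after the annotated start, with the part of the pyrimidine run that falls in the window in capitals. They were chosen because the run overlaps or closely follows the start and because these genes differed in a comparison described further on. Rpl3l, whose printed bases hold no such run, is set beside them. A run of 9 letters begins 31 bases after this Rpl3l start, outside the printed bases, so Rpl3l is among the 30 genes counted.
Rpl38: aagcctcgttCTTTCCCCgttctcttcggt
Rpl15: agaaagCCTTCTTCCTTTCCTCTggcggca
Rpl35a: gcttgCCTTCCTCTTTCCgccatcttggcg
Rps26: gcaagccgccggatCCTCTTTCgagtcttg
Rps27: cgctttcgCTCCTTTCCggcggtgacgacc
Rpl3l: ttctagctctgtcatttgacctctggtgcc
These windows lie at chr11:114668570-114668599 (plus strand) for Rpl38, chr14:18270967-18270996 (minus) for Rpl15, chr16:33056472-33056501 (plus) for Rpl35a, chr10:128626487-128626516 (minus) for Rps26, chr3:90213629-90213658 (minus) for Rps27 and chr17:24727816-24727845 (plus) for Rpl3l.

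The first comparison asked how the genes differ between chemically reprogrammed and somatic cells. In CiPSCs 12 of the 41 genes tested were higher than in somatic cells and 0 were lower. A gene was called with limma, group and set as terms and all 30 samples in the fit, at a Benjamini-Hochberg adjusted p under 0.05 over all 16497 genes tested and a difference of at least 2-fold. Of all genes 28.0% were called, 14.8% higher and 13.3% lower, so that the share of ribosomal protein genes called in either direction (29.3%) was near that of all genes, while the calls went 1 way. The median fitted log2 difference was 0.44 over the 41 genes, against -0.11 over all genes, and 30 of the 41 were above 0, against 45.2% of all genes. In bulk RNA, fewer cells with a transcript and less of it per cell cannot be told apart. The samples of a set also have nearly the same median intensity after the authors' normalization, so levels are relative to the other genes of a sample. Without MEF3 the count was 10 of 38, and without set 5 it was also 10 of 38. No share of all genes is given for fits without some of the samples, here or below.

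**Figure D1:**
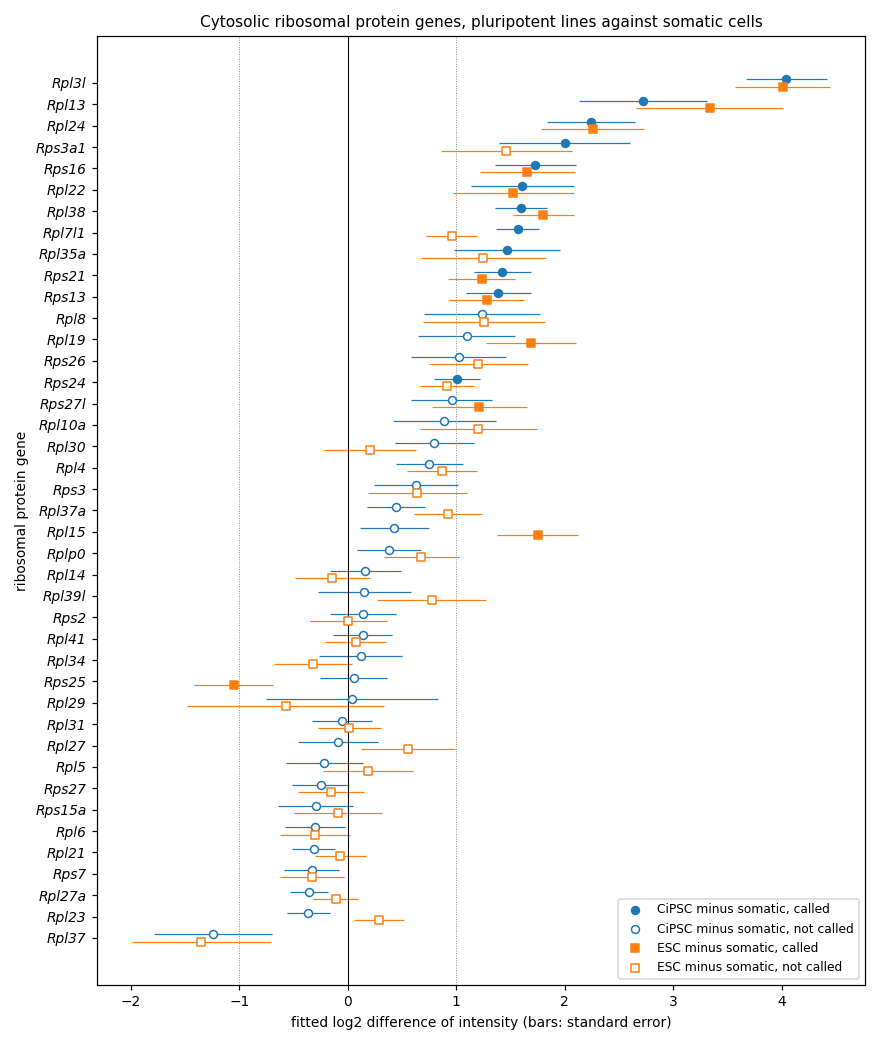
Fitted log2 difference of intensity for 41 ribosomal protein genes, in CiPSCs (blue circles, n = 11) and ESCs (orange squares, n = 5) against somatic cells (n = 7); bars are standard errors, filled symbols are called and dotted lines mark 2-fold. In CiPSCs 12 genes were called higher and 0 lower, and in ESCs 11 were called higher and 1 lower, with Rpl3l at the top of both. A second Rpl3l probe, not drawn, was called in neither.

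Of the 25 large-subunit genes 5 were called higher in CiPSCs (median log2 difference 0.38), and of the 12 small-subunit genes tested 5 were called higher (median 0.82). Of 4 paralogs of core proteins 2 were called, Rpl3l and Rpl7l1. Without the 4 paralogs, a count added after the data had been seen, 10 of 37 genes were called higher.

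Rpl3l (chromosome 17, 24727826 to 24736143, GRCm38.p6) had the largest difference. Its intensity ran from 91.1 (CiPSC control) through a median of 823 to 3392 (MNF CiPS1) in the 11 CiPSC lines, and was 1973, 865, 345, 537 and 143 in ESC1 to ESC5. In the 7 somatic samples it ran from 20.6 (MEF3) through 39.5 to 86.7 (MAF). Every CiPSC and ESC sample lay above every somatic sample of its set, and the 2 groups did not overlap even across the separately normalized sets. The fitted log2 difference was 4.04 ± 0.37 (SE) in CiPSCs (limma adjusted p = 1.67e-08). A second Rpl3l probe, measured in sets 2, 4 and 5, gave 0.50 ± 0.28 (adjusted p = 0.173). Another, measured in sets 4 and 5 only and not tested, had 123, 113 and 94.2 in SKM-FSK1, SKM-FSK2 and ESC4 against 10.6 in MEF2, but in set 5 it had 23.1 in the CiPSC control and 3.08 in ESC5 against 5.33 in MEF3. The difference was therefore called with 1 of the 2 probes tested.

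Rpl24, a large-subunit protein mutated in the Belly spot and tail mouse, ran from 655 (MNF CiPS1) through 1252 to 2253 (ADSC CiPS2) in CiPSCs, and from 67.4 (MNF) through 239 to 1430 (MEF3) in somatic cells. CiPSCs lay wholly above the somatic samples in 2 of 4 sets, and in set 5 the CiPSC control (1252) lay below MEF3 (1430). The log2 difference was 2.24 ± 0.40 (limma adjusted p = 1.16e-04). Rpl13, another large-subunit protein, was measured in sets 2 to 5 and ran from 83.2 (MAF CiPS3) through 389 to 1751 (ADSC CiPS2) in 7 CiPSC lines, and from 28.8 (WT MEF) through 62.5 to 266 (ADSC) in 6 somatic samples. Its groups overlapped in set 2, and the difference was 2.72 ± 0.59 (adjusted p = 0.00153).

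Rpl38, which is known in mice for its part in the translation of Hox mRNAs, lay in every set above the somatic samples. It ran from 2566 (CiPS WT2) through 6726 to 11126 (MAF CiPS3) in CiPSCs, and from 907 (WT MEF) through 1920 to 4145 (ADSC) in somatic cells, a log2 difference of 1.60 ± 0.24 (limma adjusted p = 1.45e-05). Rpl7l1, a paralog of Rpl7 that takes part in ribosome assembly, likewise had no overlap within any set, with 6161 through 9445 to 13274 in CiPSCs and 1210 (MEF3) through 4042 to 7011 (ADSC) in somatic cells. Its difference was 1.57 ± 0.20 (adjusted p = 1.56e-06), but a second probe gave 0.38 ± 0.47 (adjusted p = 0.544), and the mean of both probes came to 0.97, below 2-fold.

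Among small-subunit genes, Rps16 ran from 427 (MNF CiPS1) through 1254 to 1811 (ADSC CiPS2) in CiPSCs, and from 144 (MNF) through 270 to 956 (MEF3) in somatic cells, a log2 difference of 1.73 ± 0.37 (limma adjusted p = 7.18e-04). Its groups were apart in 3 of 4 sets. Rps21 (1.42 ± 0.26) and Rps13 (1.39 ± 0.30) were called under every alternative run. Rps3a1 was measured in sets 1, 4 and 5 only, where its values were 609, 293, 215, 180 and 260 in 5 CiPSC lines against 49.9 in MEF1, 80.7 in MEF2 and 230 in MEF3. Its difference was 2.00 ± 0.60 (adjusted p = 0.0214), but the adjusted p was 0.0509 without MEF2, and with the title number as a block the log2 difference was 0.44 (adjusted p = 0.790).

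Rpl22, a large-subunit protein whose loss in mice blocks the development of alpha-beta T cells, ran from 1055 (CiPS WT1) through 2567 to 9235 (MAF CiPS3) in CiPSCs, and from 134 (MEF3) through 1868 to 3792 (MEF2) in somatic cells. The groups were apart in 2 of 4 sets, and the difference of 1.61 ± 0.47 (limma adjusted p = 0.00943) lost its call without set 2 (adjusted p = 0.0764). Rpl35a, which is mutated in some patients with Diamond-Blackfan anaemia, had 1.47 ± 0.49 (adjusted p = 0.0203), with CiPSCs above the somatic samples in 2 sets and below MEF3 in set 5. Its call was lost without MNF (adjusted p = 0.0627) or WT MEF (0.0667). Rps24, also a Diamond-Blackfan anaemia gene, lay just past 2-fold at 1.01 ± 0.21 (adjusted p = 5.68e-04) and fell below it when any of 8 single samples was left out.

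Genes named by rule that missed the call were Rps27l, a p53-responsive paralog of Rps27, at 0.96 ± 0.37 (adjusted p = 0.0452, below 2-fold), Rplp0, the stalk protein often used as a reference gene in PCR, at 0.38 ± 0.29 (0.310), and Rpl39l, a paralog known for its expression in testis, at 0.15 ± 0.43 (0.792). Rplp0 ran from 1155 (CiPSC control) through 4962 to 8817 (CiPS45) in CiPSCs, and from 258 (MEF3) through 5491 to 8604 (MEF2) in somatic cells, so the groups overlapped. Probes of a gene also differed outside the called genes. For Rps7 the probe standing for the gene gave -0.33 ± 0.25 and the other 1.51 ± 0.58 (adjusted p = 0.0496), and for Rpl30 they gave 0.80 ± 0.36 and 1.88 ± 0.36 (adjusted p = 2.52e-04). When the other probe stood for each gene that had several, a choice made after the data had been seen, 12 of 41 genes were again called higher, although the second probes of Rpl3l and Rpl7l1 were not. The probe letters were not used here, and ribosomal protein genes have many processed pseudogenes, so what share of a signal came from pseudogene transcripts was not tested. The RefSeq pseudogene Rps4l had a difference of 3.34 ± 0.21 (adjusted p = 5.80e-11).

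**Figure D2:**
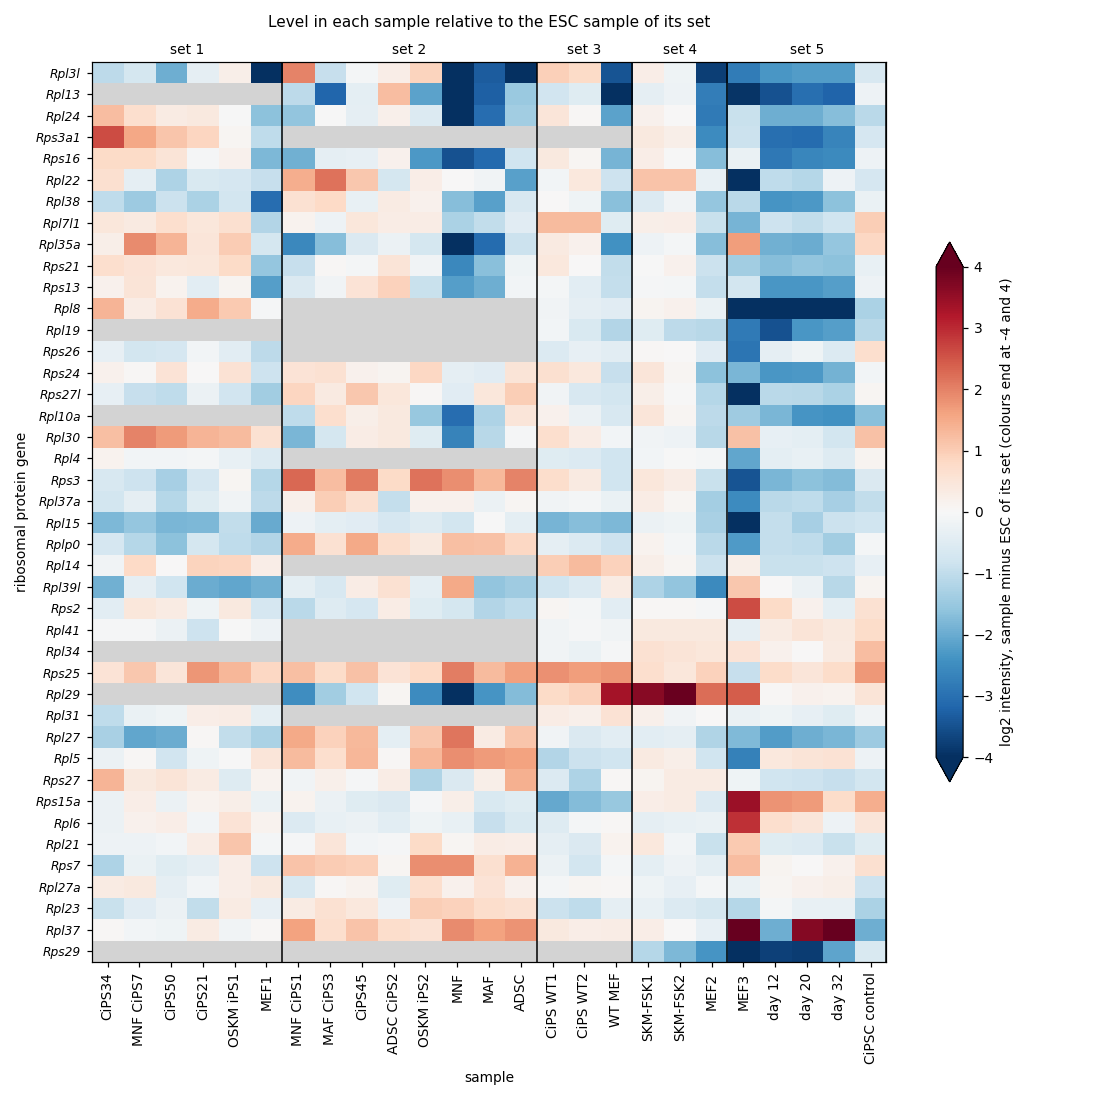
Log2 intensity of each ribosomal protein gene in each sample minus the ESC sample of the same set; rows are genes ordered by the fitted CiPSC difference, columns are samples grouped by set, grey marks genes not measured in a set and colours end at -4 and 4. Rpl3l is low in every somatic sample and on days 12 to 32, and MEF3 has high values (Rps15a, Rpl6, Rps2) and low ones (Rpl15, Rps27l, Rps3) that are more extreme than in any other fibroblast.

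Within single sets, where no fit across sets is needed, the median log2 difference of CiPSCs from somatic cells over the ribosomal protein genes was 0.50, 0.41, 0.20 and 0.61 in sets 1, 2, 3 and 5, against -0.03, 0.03, -0.10 and -0.34 over all genes. Of 38 genes measured in at least 3 of these sets, 14 were higher in every set and 2, Rpl23 and Rpl27a, were lower in every set, against 22.2% and 25.8% of the 14792 genes so measured. The 14 were Rpl3l, Rpl4, Rpl7l1, Rpl8, Rpl13, Rpl22, Rpl37a, Rpl38, Rplp0, Rps13, Rps16, Rps21, Rps24 and Rps27l. At least 2-fold differences in set 1 were seen in 10 of 36 genes upward (16.5% of all genes) and 0 downward (15.3%), and in set 2 in 12 of 32 upward (17.4%) and 0 downward (16.7%). In set 3 they were seen in 10 of 40 genes upward (17.6%) and 2 downward (16.1%), and in set 5 in 19 of 42 upward (27.9%) and 6 downward (35.9%).

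The second comparison set ESCs against the same somatic samples, and so shares them with the first. Of 41 genes 11 were called higher in ESCs and 1 was called lower, with 15.1% of all genes called higher, 14.2% lower and 29.3% in either direction. The median log2 difference was 0.78, against -0.10 over all genes. Without MEF3 the median was 0.46, with 11 higher and 1 lower, and without set 2 the count was 17 higher and 1 lower.

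The called genes were Rpl3l (4.01 ± 0.44), Rpl13 (3.34 ± 0.68), Rpl24 (2.26 ± 0.47), Rpl38 (1.80 ± 0.28), Rpl15 (1.75 ± 0.37), Rpl19 (1.69 ± 0.42), Rps16 (1.65 ± 0.44), Rpl22 (1.53 ± 0.56), Rps13 (1.28 ± 0.35), Rps21 (1.24 ± 0.31) and Rps27l (1.21 ± 0.44) upward and Rps25 (-1.05 ± 0.36) downward. The second Rpl3l probe gave -0.15 ± 0.32 (limma adjusted p = 0.740), so here too the Rpl3l call rested on the probe standing for the gene. Rpl15, a large-subunit protein, had intensities of 14056, 4786, 3910, 19832 and 6176 in ESC1 to ESC5, against 3457 in MEF1, 2897 in MNF, 4718 in MAF, 3629 in ADSC, 1135 in WT MEF, 8084 in MEF2 and 340 in MEF3. Each ESC lay above the somatic samples of its set, though by little in set 2. The limma adjusted p of Rpl15 was 8.06e-04 in ESCs, while CiPSCs had 0.43 ± 0.32 (adjusted p = 0.289). Probe choice also mattered for Rpl30, which was not called in ESCs with the probe standing for the gene (0.20 ± 0.43). Its other probe gave 1.42 ± 0.42 (limma adjusted p = 0.0121).

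Rpl19, measured in sets 3 to 5, had 94.6, 444 and 244 in ESC3, ESC4 and ESC5 against 42.4, 208 and 34.6 in WT MEF, MEF2 and MEF3 (adjusted p = 0.0113), and lost its call without ESC5. Rps25, a small-subunit protein used by viral internal ribosome entry sites, had 381, 406, 99.4 and 408 in ESC1 to ESC4, below 678 in MEF1, 970 to 1676 in the somatic samples of set 2, 335 in WT MEF and 770 in MEF2. In set 5 the order was the other way, with 175 in ESC5 and 93.4 in MEF3. The Rps25 call (adjusted p = 0.0268) was lost without MNF, ADSC, ESC2, WT MEF or ESC3, the Rpl22 call (0.0361) without ESC1, ADSC, ESC3, MEF3 or ESC5, and the Rps27l call (0.0344) without ESC1, ESC3, MEF2, ESC4, MEF3 or ESC5.

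In OSKM iPSCs 6 of 29 genes were called higher and 1 lower than in somatic cells (22.0% of all genes were called in either direction, 1373 higher and 1142 lower of 11406), with a median log2 difference of 0.66 against 0.04 over all genes. Rpl3l was at 2313 and 1607 in the 2 lines (log2 difference 5.00 ± 0.61, limma adjusted p = 2.89e-06). The second Rpl3l probe was measured in set 2 but not in set 1, so it was not tested here. It had 84.8 in OSKM iPS2 against 53.75, 37.4 and 50.6 in MNF, MAF and ADSC. The other genes called higher were Rpl24 (1.97 ± 0.66), Rpl38 (1.75 ± 0.40), Rpl7l1 (1.58 ± 0.33), Rps21 (1.58 ± 0.43) and Rps24 (1.35 ± 0.35). Rps27 was lower, at 104 and 84.8 in OSKM iPS1 and OSKM iPS2 against 165 in MEF1 and 129, 226 and 523 in the set 2 somatic samples (-1.35 ± 0.43, adjusted p = 0.0234). This call was lost with no set term, with the title number as a block and with only the sets that hold both groups. The Rpl24 call was lost with no set term, with the title number as a block, with MEFs alone as somatic samples and without MEF1, set 3 or set 4. Without set 5 there were 7 higher and 1 lower, and the same without MEF3. Without OSKM iPS1 the count was 2 genes, and without OSKM iPS2 it was 3.

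In SKM-FSK iPSCs 3 of 41 genes were called higher and 0 lower, against 7.30% and 7.92% of all genes (15.2% in either direction), a share no larger than the background. They were Rpl3l (3.93 ± 0.77, limma adjusted p = 0.00123), Rpl24 (2.63 ± 0.83, 0.0348) and Rps24 (1.55 ± 0.44, 0.0178). The median was 0.85, against 0.03 over all genes, and 35 of 41 genes were above 0. The set 4 values have a single somatic sample, MEF2, over which Rpl3l stood at 643 and 478 against 39.5. The second Rpl3l probe had 108 and 148 against 80.1, and the third had 123 and 113 against 10.6. The count was 1 without either SKM-FSK line, 5 without ADSC and 7 without MEF3.

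Between CiPSCs and ESCs 0 of 41 genes were called by limma, against 0.0303% of all genes (5 of 16497). At an unadjusted p under 0.05 there were 4 ribosomal protein genes and 819 genes in all. Without set 5, 1 of 38 genes, Rpl15 (-1.30 ± 0.22, limma adjusted p = 0.0339), was called lower in CiPSCs. The median log2 difference was -0.02. The genes with the smallest p-values were Rpl15 (-1.32 ± 0.36, adjusted p = 0.329) and Rps25 (1.11 ± 0.35, adjusted p = 0.522). For Rpl3l the difference was 0.03 ± 0.42 and for Rpl24 -0.02 ± 0.46, which does not show that the groups are alike.

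The next question was whether any somatic sample carried ribosomal protein levels unlike the rest. Each somatic sample was given its own term in the fit, which measures its departure from the level that its group and set predict. A departure within set 5 is measured against ESC5 and the CiPSC control, so it holds whatever separates either side. For MEF3, 18 of 41 genes departed (6 above and 12 below), against 45.1% of all genes (26.9% above and 18.2% below). The other 6 samples had departures in 0 ribosomal protein genes, against 0.0154% of all genes in MEF1, 0.432% in MNF, 0.510% in MAF, 0.0496% in ADSC, 0.0201% in WT MEF and 0.0308% in MEF2. MEF3 stayed in the fits of these 6 samples and added to their residual spread, so 18 and 0 are not on equal terms. The 6 samples were not refitted without MEF3. At an unadjusted limma p under 0.05, ADSC had 10 of 32 ribosomal protein genes (1143 of 14107 genes in all). MNF had 9 of 32 (2268 of 14107). MEF1, MAF, WT MEF and MEF2 had 0, against 715 of 13029, 976 of 14107, 389 of 14895 and 305 of 16248 genes in all.

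**Figure D3:**
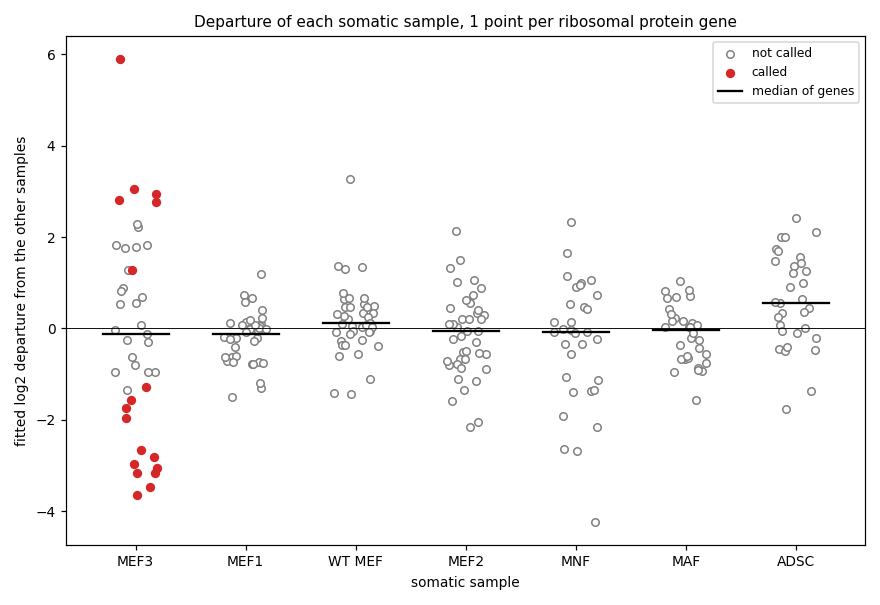
Fitted log2 departure of each of the 7 somatic samples, 1 point per ribosomal protein gene, with called genes in red and the median as a black line. MEF3 has 18 called genes, spread from -3.64 (Rps27l) to 5.89 (Rpl37, which rests on intensities under 16), and the other samples have 0. MEF3 stayed in the fits of the other samples, so these counts are not on equal terms.

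The genes lowest in MEF3 were Rps27l (-3.64 ± 0.58, limma adjusted p = 4.58e-05), Rpl22 (-3.47 ± 1.01), Rpl8 (-3.17 ± 0.72) and Rpl15 (-3.17 ± 0.47), followed by Rpl5 (-3.07 ± 0.65), Rps3 (-2.96 ± 0.80) and Rps26 (-2.81 ± 0.48). Rps27l had an intensity of 408 in MEF3, against 4394, 4498 and 9418 in MEF1, WT MEF and MEF2. Rpl5, which with Rpl11 binds Mdm2, had 163 in MEF3, against 1492, 413 and 1708 in MEF1, WT MEF and MEF2. Rps26 had 1979 in MEF3, against 19240, 18418 and 46797 in the same samples, and 1 Rps26 value of set 4 lay at the top of the scale.

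The highest departures were Rpl35a (3.06 ± 1.12), Rps15a (2.94 ± 0.65), Rps2 (2.81 ± 0.50) and Rpl6 (2.77 ± 0.38). Rps2 had 2115 in MEF3 against 289, 179 and 434 in MEF1, WT MEF and MEF2, and Rpl6 had 1230 against 180, 124 and 224. Rpl37 had the highest fitted value (5.89 ± 0.67), but it rests on intensities under 16, with 15.6 in MEF3 against 0.1 in the CiPSC control and 0.383 in ESC5, so its size cannot be read. With an offset at the 5th percentile it was not called (limma adjusted p = 0.260). The other Rpl37 probe had 68.2 in MEF3 against 59.3 in the CiPSC control and 173 in ESC5, and its departure was -1.07 ± 0.58 (adjusted p = 0.147). Rps15a and Rpl21 lost their calls when the probes of a gene were averaged, and Rpl21 then turned to -0.43. Beside these values, pluripotency markers departed upward in MEF3 in 5 of 9 (median 2.80), fibroblast markers in 0 of 9 (median -0.86) and housekeeping genes in 1 upward and 3 downward of 9. The largest pluripotency departures, Tfcp2l1 (7.92) and Sox2 (6.20), were not high levels in MEF3. Sox2 had 28.2 in MEF3 and 34.2 in ESC5, against 285 in MEF1 and 11412 in ESC1 of set 1. Tfcp2l1 had 14.6 in MEF3 and 17.3 in ESC5, against 45.25 in MEF1 and 12826 in ESC1. The part of these marker and housekeeping departures in the ribosomal protein departures was not tested.

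Levels within set 5 were also compared with the same cell type in the other sets, as rank correlations across the ribosomal protein genes (29 to 42 genes, all sharing the probe design, which alone gives high values). ESC5 reached Spearman 0.77 to 0.93 with the other 4 ESC samples, whose own pairs gave 0.70 to 0.95. The CiPSC control reached 0.82 to 0.96 with the other 10 lines, where pairs of lines from different sets gave 0.83 to 0.98. MEF3 reached 0.51 to 0.61 with MEF1, WT MEF and MEF2, whose own pairs gave 0.93 to 0.96. Days 12, 20 and 32 lay between, at 0.78 to 0.81 with these fibroblasts. Over all genes ESC5 gave 0.76 to 0.81 against 0.91 to 0.94 among the other ESC samples, and MEF3 gave 0.66 to 0.69 against 0.91 to 0.94 among the other MEFs. Over ribosomal protein genes ESC5 and the CiPSC control ranked much like their counterparts and MEF3 did not, while over all genes each stood apart.

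In ADSC the median departure was 0.56, the largest of the 7 samples, with Rps21 (1.69 ± 0.48) and Rps16 (2.01 ± 0.72) high, but neither was called (limma adjusted p = 0.217 and 0.397). In MNF Rpl29 (-4.23 ± 1.19), Rpl24 (-2.68 ± 0.71) and Rpl10a (-2.64 ± 0.69) were low and also not called (adjusted p = 0.105, 0.0816 and 0.0968).

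The time course within set 5 has 1 sample per time and no test. From MEF3 to day 12, 12 of 42 genes were at least 2-fold higher (24.9% of all genes) and 17 were at least 2-fold lower (31.6%). On day 20 these were 10 and 17 (25.8% and 33.0% of all genes), and on day 32 they were 11 and 14 (28.1% and 35.8%). Between treated days little moved, with 2 genes higher and 0 lower on day 20 against day 12 (5.49% and 3.76% of all genes), and 1 higher and 0 lower on day 32 against day 20 (9.01% and 7.15%). Those on day 20 were Rpl19 (22.0 to 48.1) and Rpl37, whose values lay under 16 (0.1 to 4.83). The gene on day 32 was Rps29, which started under 16 (10.0 to 32.5). In the CiPSC control against day 32, 19 genes were higher and 2 were lower (21.1% and 19.4%).

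The largest rises from MEF3 to day 12 were those of genes that MEF3 held low. The departure and the rise hold the same MEF3 value, so a low value gives both and a high value gives a fall. Their match is therefore no separate result. Rpl22 had 134 in MEF3 and 1923, 1745 and 3397 on days 12, 20 and 32, with 2423 in the CiPSC control and 3888 in ESC5. Rpl15 had 340 in MEF3, then 3181, 2436 and 3432, with 3562 and 6176 in the CiPSC control and ESC5. Rpl5 had 163 in MEF3, then 1407, 1529 and 1598, and Rps27l had 408, then 3444, 3327 and 3024. For Rpl22, Rpl15 and Rpl5 the days of treatment lay within the range of MEF1, WT MEF and MEF2, and for Rps27l below it. Those fibroblasts belong to separately normalized sets with higher median intensities, so these positions compare unlike scales.

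Falls from MEF3 to day 12 were largest for Rpl8, Rpl35a and Rps16. Rpl8 had 638.5 in MEF3, was listed at 0.1 on all 3 days, and had 5149 in the CiPSC control and 12382 in ESC5. No fold is given for it. Rpl37 ranked with these by its unfloored values (15.6 in MEF3, listed at 0.1 on day 12), but both are under 16, and its other probe had 68.2 in MEF3 and 131 on day 12. Rpl35a had 2287 in MEF3 and 190, 181 and 244 on days 12, 20 and 32, against 1289 in the CiPSC control. Rps16 had 956 in MEF3, then 161, 189 and 200, and 999 in the CiPSC control. By day 32 Rpl6 (log2 difference -3.12) and Rps2 (-3.00) were also among the 4 largest falls. Rpl3l had 20.6 in MEF3, then 28.1, 30.3 and 30.3, with 91.1 in the CiPSC control and 143 in ESC5. All 3 days lay below both pluripotent samples of the set.

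**Figure D4:**
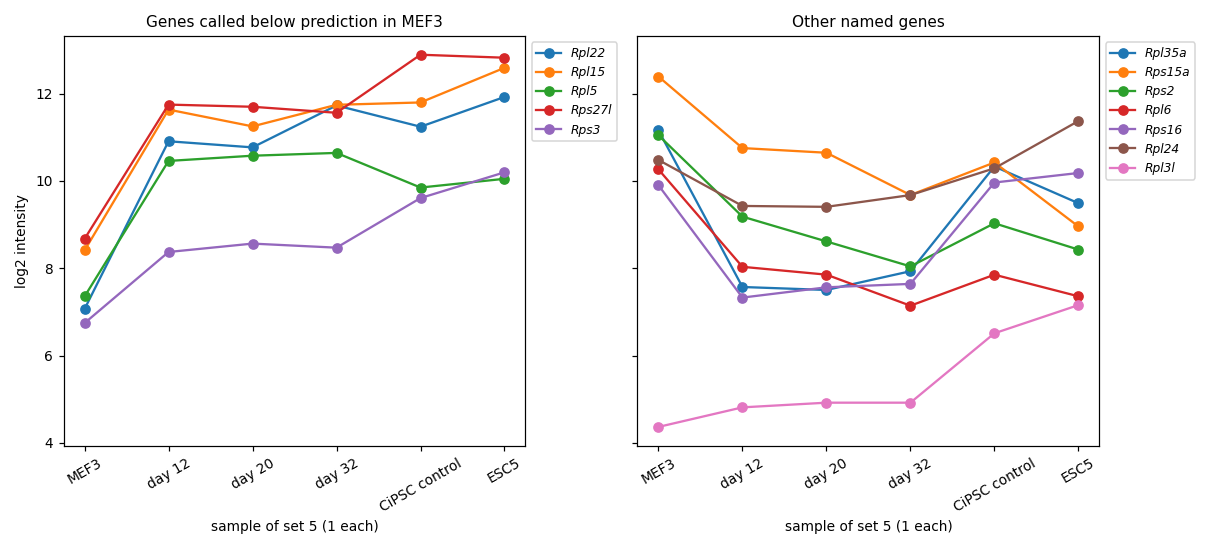
Log2 intensity in the 6 samples of set 5, each measured once, for 5 genes called below prediction in MEF3 (left) and for 7 other named genes (right). Rpl22, Rpl15, Rpl5 and Rps27l step up between MEF3 and day 12 and stay above MEF3, while Rps16 and Rpl35a step down and are high again in the CiPSC control. The MEF3 value enters both the call below prediction and the step.

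Fewer ribosomal protein genes lay within 2-fold of the ESC of the set in MEF3 (11 of 42, 26.2%) than in any other somatic sample (37.5% to 72.5%). The share was 50.0%, 45.2% and 50.0% on days 12, 20 and 32 and 73.8% in the CiPSC control. Over all genes MEF3 was also the lowest somatic sample, with 32.6% against 52.7% (MNF) to 63.2% (MEF2) in the others. The share over all genes was 51.2%, 53.7% and 58.2% on days 12, 20 and 32 and 78.8% in the CiPSC control.

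Other genes of the pathway were counted from lists drawn up by function. Of 46 ribosome biogenesis genes 27 were higher and 0 lower in CiPSCs than in somatic cells, with a median log2 difference of 1.22. They included Fbl (fibrillarin, which methylates rRNA, 2.92 ± 0.58), Dkc1 (dyskerin, which pseudouridylates it, 2.65 ± 0.32) and Nop56 (2.12 ± 0.54), each with a limma adjusted p of at most 0.00323. Translation factors were higher in 6 and lower in 0 of 29 (median 0.65), led by Eif2s2 (2.20 ± 0.44), Tpt1 (1.92 ± 0.49) and Eif3b (1.55 ± 0.39). Mitochondrial ribosomal proteins, which serve a separate ribosome, were higher in 15 and lower in 0 of 69 (median 0.65), led by Mrps31 (2.47 ± 0.35), Mrpl39 (1.61 ± 0.47) and Mrps18b (1.57 ± 0.45). For each list in this fit to all samples the same background applies, 14.8% of all genes called higher and 13.3% lower. Without set 5 the counts were 23 higher and 0 lower of 43 biogenesis genes, 5 and 0 of 29 translation factors, and 7 and 1 of 66 mitochondrial ribosomal proteins. Without MEF3 they were 25 and 0 of 43, 4 and 0 of 29, and 8 and 1 of 66. These counts without samples were added after the data had been seen. The background above is not theirs, and whether they exceed their own was not tested.

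Among 14 genes that control ribosome synthesis, Mycn (3.57 ± 0.31, limma adjusted p = 6.05e-09) and Mtor (1.19 ± 0.23, 5.59e-04) were higher in CiPSCs, and Akt1 (-1.95 ± 0.30, 1.65e-05) was lower. Myc, a driver of ribosomal protein transcription, had 0.29 ± 0.96 (adjusted p = 0.830), and Larp1, which binds the pyrimidine run, had 1.65 ± 0.75 (0.0843). Fibroblast markers were lower in 9 of 10 and pluripotency markers higher in 9 of 9 in the same comparison. Without set 5, Mycn, Mtor and Akt1 were still called, fibroblast markers were lower in 5 of 5 and pluripotency markers higher in 8 of 8. In MEF3 the mitochondrial ribosomal proteins departed upward in 7 and downward in 33 of 69 (median -1.20), and the ribosome biogenesis genes in 8 and 7 of 46 (median 0.20). Of all genes 26.9% departed upward and 18.2% downward in MEF3, with a median of 0.37.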

How the data were processed

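Intensities of 26423 probes on a linear scale were used as deposited by the authors, 1 column per sample, normalized separately in 5 sets per the series' design text. Scanner, background correction and probe filter: not given in the sources used here. Values were converted to log2 from the deposited intensity, with no offset; none was at or below 0, and differences of values under 16 are large. Of the probes, 21876 carried 1 gene, 4547 none and 0 several, and 21825 matched RefSeq (GRCm38.p6). The probe measured in most samples, then the brightest, stood for a gene. Models were fitted with limma 3.58.1 in R 4.3.3 (group and set as terms, Benjamini-Hochberg adjustment, simulated data as a test). A gene was tested where both groups shared at least 2 sets (1 for SKM-FSK iPSC) with 3 residual degrees of freedom.

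The members and lists were chosen with earlier results of these data known. Genes are named by rule: the 8 largest called differences in CiPSC or ESC, the 4 highest and lowest departures of MEF3, the 4 largest rises and falls to days 12 and 32, a fixed set of paralogs and stalk proteins, and the 3 largest called per other list; further called genes were named after their values were seen. Of 1120 member values, 12 lay under 16 and 8 within 0.1% of the top of the scale (Rpl41, Rpl4, Rps26), where a difference is understated. The number of arrays limits the precision. Same-numbered samples of different groups had residual correlations from -0.40 to 0.55 over 31 pairs, with 9 above 0.1, and the numbers were not taken to pair samples. Pairs with different numbers were not compared, so these correlations cannot exclude pairing. Alternatives were normalizations, filters, offsets, probe choice, set handling and samples left out.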

Additional observations from a re-analysis of the deposited data

Results flagged for a closer look

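In 78 groups of 4 to 10 samples, 11 had a sample far from the others by Dixon's ratio, where chance gives about 1 in 20, and all 11 were MEF3 or ESC5 of set 5, which share the same pair of values. As log2 difference from the ESC of the set, MEF3 was highest among somatic samples for Rps15a (3.44), Rpl6 (2.91) and Rps2 (2.62), and lowest for Rpl8 (-4.28) and Rps25 (-0.91). It was also highest for Rpl37 (5.35, others -0.33 to 1.90), a value between intensities under 16 whose size cannot be read. As log2 difference from the somatic mean of the set, ESC5 was highest among ESC samples for Rpl22 (4.86) and Rpl8 (4.28), and lowest for Rps15a (-3.44), Rpl6 (-2.91) and Rps2 (-2.62).

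The departure of MEF3 from the level predicted by group and set was called with limma in 18 genes. The log2 departures below prediction were -3.64 for Rps27l, -3.47 for Rpl22, -3.17 for Rpl8, -3.17 for Rpl15, -3.07 for Rpl5, -2.96 for Rps3, -2.81 for Rps26, -2.67 for Rps25, -1.97 for Rplp0, -1.74 for Rpl4, -1.56 for Rpl37a and -1.29 for Rpl7l1. Those above were 3.06 for Rpl35a, 2.94 for Rps15a, 2.81 for Rps2, 2.77 for Rpl6 and 1.29 for Rpl21. The fitted 5.89 for Rpl37 rests on intensities under 16, was not called with an offset (adjusted p = 0.260) and is no measured size; the other probe of the gene gave -1.07 (adjusted p = 0.147). The share of all genes that departed was as high, and what separates MEF3 from ESC5 and the CiPSC control cannot be told apart from what separates these from their counterparts in this fit.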

How the results depend on the processing

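Of 396 alternative values of the counts and medians 366 stayed near the reported one, by a fixed ratio for counts and a standard deviation for medians. Of 1097 values for named genes 997 kept their call and direction, whatever their size. Another 99 lost their call and 1, the Rpl21 departure of MEF3, turned to -0.43 with the mean of probes. An alternative without the 2-fold rule was among them, under which no call could be lost. Leaving out each sample gave 10 to 15 genes and medians of 0.35 to 0.59 for CiPSC, 10 to 15 and 0.46 to 0.93 for ESC, 2 to 9 and 0.40 to 0.71 for OSKM iPSC, 1 to 7 and 0.67 to 0.91 for SKM-FSK iPSC (all against somatic), and 0 for CiPSC against ESC. The CiPSC median was 0.70 without set 2 and 0.75 with MEFs alone as somatic samples. For ESC 7 genes were called with no set term, and the median was 1.03 without set 2. For OSKM iPSC 1 gene was called without set 1, and the medians were 0.35 without set 1 and 0.83 without set 2. For SKM-FSK iPSC the count was 10 with no set term, 1 without set 1, 8 without set 2 and 7 without set 5, and the medians were 0.91 with the mean of probes, 1.15 with no set term, 0.98 without set 3 and 0.66 without set 5. For CiPSC against ESC 1 gene, Rpl15, was called without set 5. With the title number as a replicate block, though it was not taken to pair samples, the counts were 12, 13, 6 and 5 for CiPSC, ESC, OSKM iPSC and SKM-FSK iPSC and 0 for CiPSC against ESC, with medians of 0.82 for OSKM iPSC and 1.03 for SKM-FSK iPSC. The cause of these moves was not tested. Restricting SKM-FSK iPSC to sets with both groups could not be fitted. Low signal limits Rpl37, Rpl8 and Rps29 in set 5.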
